A study of Drosophila melanogaster with 6 samples.

Results

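The transcript of btn (buttonless), a homeobox gene, was followed together with those of the homeotic genes lab, pb, Dfd, Scr, Antp, Ubx, abd-A and Abd-B and of ftz, a homeobox gene that lies among them, in Drosophila S2* cells with and without the steroid hormone 20-hydroxyecdysone (20E). Members were all array probe sets whose annotation names exactly 1 gene, where that gene is one of these 10. This gave 6 of 11982 named genes, with 8 of 18769 probe sets, namely 1 each for btn, pb, Dfd, Scr and ftz and 3 for Antp. The other 4 genes, lab, Ubx, abd-A and Abd-B, were not analysed here. The set was chosen by the treated against untreated intensities of btn, whose fall was among the largest of all called genes, so its values in this comparison are a description and carry no test. The other genes were chosen as its relatives with results of the same comparison known, and are treated alike.

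S2* cells are a variant of the S2 line, an established macrophage-like line of Drosophila melanogaster. Of 6 samples, 3 were left untreated and 3 received 20E (1 µM, 24 h), and the total RNA of each was labelled with biotin and measured on its own Affymetrix Drosophila 2.0 array. All samples were grown in the same serum-containing medium, and neither a solvent control nor a time in culture is named for the untreated cells, so effects of either cannot be told apart from that of 20E. The labels do not say that replicates were separate cultures, so p-values and SDs cover the variation among these 6 RNA samples, part or all of which may be technical. RNA of whole cultures was measured, so fewer expressing cells and less RNA per cell cannot be told apart.

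Hox genes encode transcription factors with a homeodomain, a DNA-binding fold, and give the segments of the fly their identity along the head-to-tail axis. They lie in 2 clusters on the same chromosome arm, the Antennapedia complex with lab, pb, Dfd, Scr and Antp and the bithorax complex with Ubx, abd-A and Abd-B. Polycomb group proteins keep them silent where they are not needed and trithorax group proteins keep them active. The gene btn lies on that arm but outside both clusters, belongs to the Meox family of homeobox genes, and is known for specifying the dorsal median cells, mesodermal cells of the embryo that guide axons. 20E acts through the nuclear receptor pair EcR and Usp and drives moulting and metamorphosis.

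Values below are quantile normalized intensities, written as units, and differences are those of log2(normalized intensity + 16), treated minus untreated, with the moderated standard error (SE) of limma. A probe set was called where the limma test across all probe sets gave an adjusted p under 0.05. Of 18767 probe sets tested, 957 were called (5.10%), with 567 higher (3.02%) and 390 lower (2.08%). Untreated replicate 1 and 20E replicate 2 lay away from the rest of their groups on the second principal component, at −47.8 and 69.9. On the first component, which separated the groups, untreated replicate 1 was at −21.6, beside −64.5 and −50.6 for untreated replicates 2 and 3. The array of 20E replicate 2 had the most empty cells, 456. Values without one or both arrays are given for the members they move and for each further listed probe set that is called without both. The alternative without both left 2 arrays per group and was added after the data were seen. Its adjusted p-values are thus a description.

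The btn transcript gave a strong signal in untreated S2* cells and a weak signal after a day of 20E. Its intensity was 1227, 1156 and 1434 units on untreated replicates 1 to 3 and 16.5, 11.4 and 14.5 units on 20E replicates 1 to 3. Every treated value lay far below every untreated one, and the lowest untreated value was 69.9 times the highest treated value. The group means were 1272 ± 145 and 14.1 ± 2.60 units (SD, n = 3 per group), so that the treated mean was 1.11% of the untreated one. As a ratio of means this was a 90.0-fold difference, and 85.5-fold on the deposited values before normalization, which were 978.19, 1258.62 and 1397.91 untreated and 16.33, 11.02 and 15.14 treated.

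On the log2 scale btn differed by −5.42 ± 0.19 (SE). The offset of 16 is as large as the treated values themselves, so this scale gives a smaller difference, 42.7-fold, than the ratio of means. With an offset of 1 the difference was −6.40, and with an offset of 64 it was −4.09. It was −5.49 without untreated replicate 1, −5.36 without 20E replicate 2 and −5.44 without both. The fall was thus as large without either of the arrays that lay apart.

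**Figure D1:**
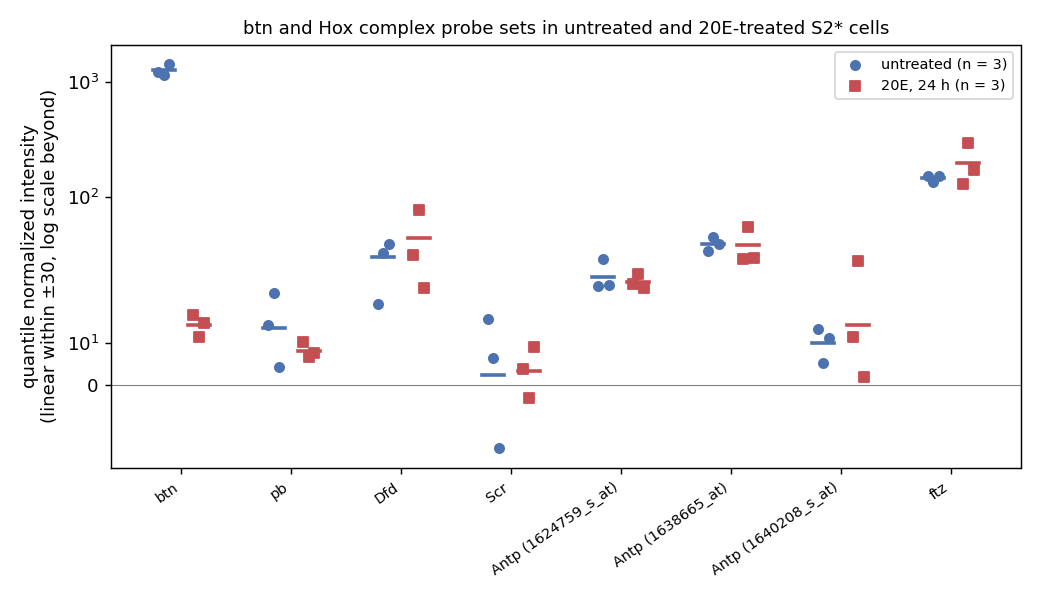
Quantile normalized intensity (vertical axis, linear within ±30 and logarithmic beyond) of the 8 probe sets of btn, pb, Dfd, Scr, Antp and ftz on each array. Blue circles are untreated samples, red squares are samples given 20E for 24 h, and horizontal lines are group means, with n = 3 per group. For btn the 3 untreated values lie between 1156 and 1434 and the 3 treated values between 11.4 and 16.5, while the groups overlap for the 7 other probe sets.

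Where the treated btn signal stands was set against probe sets of odorant and gustatory receptor genes, which serve in sensory neurons. Over 125 such probe sets of 112 genes, the group mean had a median of 23.9 units in untreated and 21.6 units in treated cells, with 95th percentiles of 128 and 88.9 units. Probe sets differ in how strongly they bind their target, so this is a range of signals and not a limit of detection. The treated btn mean of 14.1 units fell inside that range, and the untreated mean of 1272 units lay above the highest receptor probe set, at 666 units. The background of the btn probe set itself was not measured, so how far its transcript fell below the treated signal is not known.

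None of the 7 probe sets of the Hox genes and ftz shared that pattern. Their differences ran from −0.24 to 0.34 on the log2 scale, with SEs from 0.18 to 0.37 and a median of −0.04, against a median of −0.02 over all probe sets. Of the 8 probe sets of btn, the Hox genes and ftz, 1 was past the threshold, that of btn, beside 5.10% of all probe sets. It was also the only 1 of the 8 whose groups did not overlap, beside 22.8% of the 18080 probe sets measured on all arrays (10.4% with the treated group above and 12.4% with it below). The comparison chose btn, so nothing is read from either count.

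The proboscipedia gene pb, which gives the adult mouthparts their identity, read 14.1, 21.6 and 4.27 units untreated and 10.2, 6.57 and 7.50 units treated. All of its treated values lay within the span of the untreated ones. The group means of 13.3 ± 8.72 and 8.08 ± 1.86 units (SD, n = 3 per group) differed by −0.24 ± 0.27 on the log2 scale (SE). Both means lay inside the range of the receptor probe sets.

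Deformed, Dfd, which acts in the maxillary and mandibular segments of the head, read 19.1, 32.6 and 39.5 units untreated and 31.2, 77.2 and 22.9 units treated. The high treated value was that of 20E replicate 2, and the other two treated values lay among the untreated ones. The difference was 0.28 ± 0.37 with all arrays, −0.09 without 20E replicate 2 and −0.28 without both arrays that lay apart. The sign of the Dfd difference thus rested on 20E replicate 2.

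Sex combs reduced, Scr, which acts in the labial and first thoracic segments, read 15.5, 6.49 and −14.8 units untreated and 3.86, −2.94 and 9.01 units treated, with 1 of 3 values below 0 in each group. Values below 0 can come from background subtraction and were set to 0 before the log was taken. The means of 2.40 ± 15.6 and 3.31 ± 6 units (SD, n = 3 per group) give no fold. The log2 difference was −0.17 ± 0.31, and 0.26 without both arrays that lay apart.

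Antennapedia, Antp, which acts in the thorax, was measured by 3 probe sets, which are annotated to the same gene and are not replicates of one another. The suffix _s_at, where present, marks possible matches to several transcripts. The probe set 1624759_s_at read 23.3, 29.5 and 23.6 units untreated and 23.8, 26.1 and 22.7 units treated, a difference of −0.04 ± 0.18 on the log2 scale. Its values had the smallest SE of the members. The probe set 1638665_at read 34.1, 45.3 and 39.1 units untreated and 29.7, 55.0 and 29.8 units treated. It differed by −0.06 ± 0.24 with all arrays, and by −0.27 without 20E replicate 2, its highest array. Without both arrays that lay apart it differed by −0.35. The third, 1640208_s_at, read 13.3, 5.12 and 11.0 units untreated and 11.3, 29.2 and 1.87 units treated, a difference of 0.13 ± 0.36 that was −0.18 without 20E replicate 2. The groups overlapped on all 3, and all of their group means lay inside the range of the receptor probe sets.

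The pair-rule gene fushi tarazu, ftz, which patterns alternate segments of the early embryo and no longer acts as a homeotic gene in flies, read 151, 134 and 152 units untreated and 130, 294 and 171 units treated. The untreated values were close together, and the treated ones lay on both sides of them. The means were 146 ± 9.97 and 198 ± 85.2 units (SD, n = 3 per group), both above the 95th percentile of the receptor probe sets. The log2 difference was 0.34 ± 0.30 and was 0.04 without 20E replicate 2. Of the 8 member probe sets, 4 were highest on 20E replicate 2, namely those of Dfd and ftz and 2 of the 3 of Antp. The share over all probe sets was not counted, so nothing about the members is read from this.

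**Figure D2:**
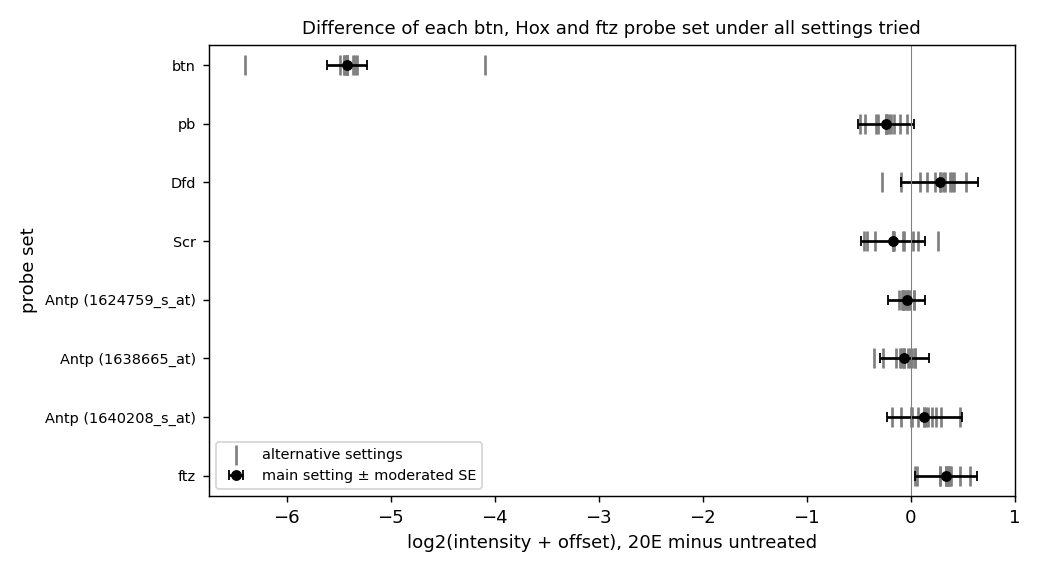
Log2 difference between treated and untreated cells (horizontal axis) for each probe set of btn, the Hox genes and ftz. Black points with bars are the reported differences ± SE (n = 3 per group), and grey ticks are the same difference under each alternative setting, including each array left out. For btn the ticks run from −6.40 to −4.09, and ticks of Dfd, Scr and all 3 Antp probe sets fall on both sides of 0.

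Within the Antennapedia complex a gene that is not a homeobox gene rose in treated cells. Ama (Amalgam) encodes a secreted protein of the immunoglobulin superfamily that binds the adhesion protein Neurotactin, and it lies between bcd and Dfd. Its probe set read 12.5, 7.59 and 16.8 units untreated and 1495, 2059 and 1459 units treated. The groups lay far apart, with means of 12.3 ± 4.61 and 1671 ± 336 units (SD, n = 3 per group). The difference was 5.89 ± 0.23 (SE, limma, adjusted p = 6.43e-05). Ama belongs to a list chosen with earlier results of these data known, so its adjusted p is a description. The untreated values lay inside the range of the receptor probe sets and near the offset of 16, so the size of the difference depends on the offset and ran from 4.49 to 7.02 across the alternatives. Ama was measured by a single probe set whose suffix (_s_at) marks possible matches to several transcripts.

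The other homeobox genes of that complex did not pass the test. The zen gene, needed for extraembryonic tissue, read 72.2, 51.1 and 78.5 units untreated and 66.1, 127 and 51.7 units treated (difference 0.17 ± 0.32, adjusted p = 0.861). Its duplicate zen2 read 175, 174 and 130 units untreated and 149, 905 and 103 units treated (0.59 ± 0.72, adjusted p = 0.765), with 20E replicate 2 again the high array. The brighter probe set of bcd, the anterior determinant of the egg, differed by −0.56 ± 0.60 (adjusted p = 0.722), or by −1.60 (adjusted p = 0.0398) without both arrays that lay apart, and its other one by −0.27 ± 0.29 (adjusted p = 0.726). Over all genes between lab and Antp in the RefSeq gene order that are no members, 11 were measured by 12 probe sets, and only that of Ama was called (1 of 12, beside 5.10% of all probe sets). This span, which also holds cuticle protein genes, was chosen after values were seen. Between Ubx and Abd-B, 2 such genes were measured by 6 probe sets, 5 of them of the long noncoding RNA iab8, and none was called, with differences from −0.74 to 0.18.

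**Figure D3:**
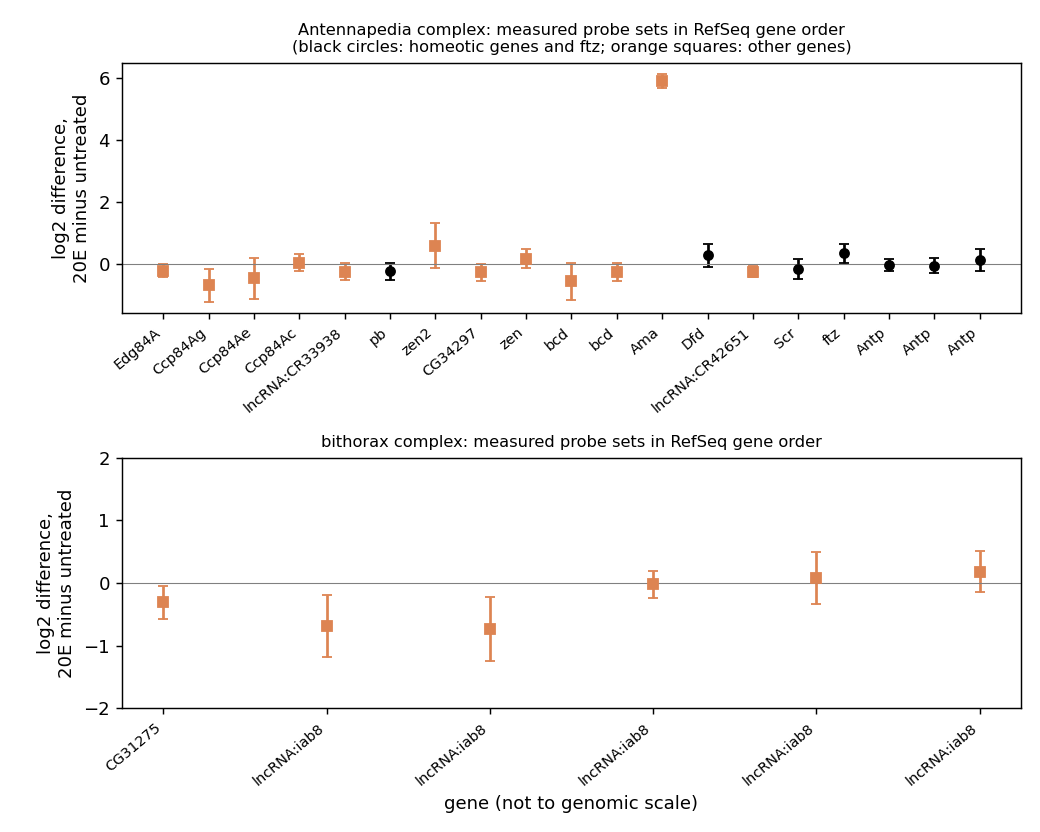
Log2 difference between treated and untreated cells ± SE (vertical axis, n = 3 per group) for each measured probe set of the Antennapedia complex (top) and the bithorax complex (bottom), in RefSeq gene order and not to genomic scale. Black circles are homeotic genes and ftz, orange squares other genes. Ama stands at 5.89, and the other probe sets of the Antennapedia complex lie between −0.70 and 0.59.

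The fall of btn was next set beside its neighbours on the chromosome, as the 3 nearest measured genes on each side in the RefSeq gene order. On one side, CG6937, whose annotated span overlaps that of btn, read 135, 149 and 165 units untreated and 45.8, 68.5 and 52.9 units treated. It fell by 1.21 ± 0.21 on the log2 scale (SE, limma, adjusted p = 0.0214). Whether the probe set of either gene also detects RNA of the other was not tested. The next gene, CG33107, differed by −0.83 ± 0.28 (adjusted p = 0.184), with treated values below all untreated ones, as in 12.4% of the probe sets measured on all arrays. The third, Dph5, a diphthamide synthesis gene, read 1164, 1407 and 1242 units untreated and 564, 657 and 369 units treated, and fell by 1.27 ± 0.26 (adjusted p = 0.0400).

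On the other side, Efa6, which encodes an exchange factor for the small GTPase Arf6, had 3 probe sets with differences of −0.19, −0.13 and 0.38. CG31156 differed by −0.42 ± 0.48 and CG13843 by 0.22 ± 0.23. None of these 5 probe sets was called. Of the 8 probe sets of the 6 neighbours, 2 were thus lower, beside 2.08% of all probe sets, and the neighbours' differences ran from −1.27 to 0.38 against −5.42 for btn. The call of CG6937 was lost without untreated replicate 2 or 3 or 20E replicate 1 or 3, with an adjusted p of up to 0.120. That of Dph5 was lost on leaving out any array except 20E replicate 2, with an adjusted p of up to 0.168, and also with an offset of 1 and without normalization.

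**Figure D4:**
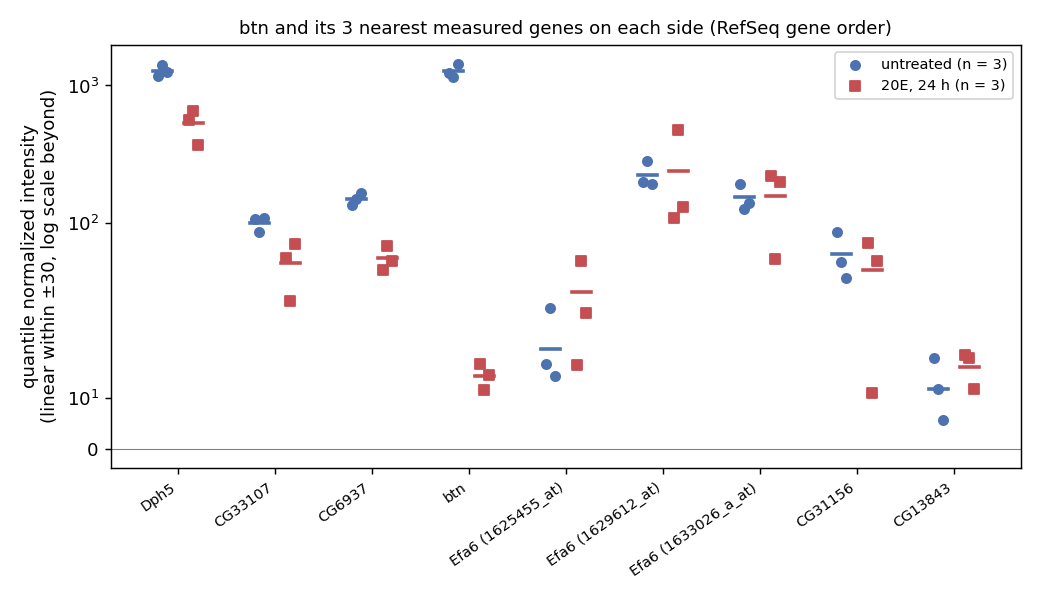
Quantile normalized intensity (vertical axis, linear within ±30 and logarithmic beyond) of btn and of its 3 nearest measured genes on each side, in RefSeq gene order. Blue circles are untreated samples, red squares samples given 20E, and horizontal lines group means, with n = 3 per group. The 3 genes to the left of btn have treated values below all untreated ones, and the groups overlap for the probe sets of the 3 genes to its right.

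The genes whose values over the 6 arrays were most like those of btn were found by Euclidean distance of log2 values, each centred on its own mean, among the brightest probe sets of 11541 genes. Nplp2, which encodes a neuropeptide-like protein, was nearest at a distance of 0.303. It read 5425, 5080 and 4996 units untreated and 108, 96.9 and 98.0 units treated, and it differed by −5.47 ± 0.18. The next were CG34330, aru, cDIP and Nazo, at distances of 1.73 to 2.11, with differences from −6.97 to −3.93. Being near btn selects for a large fall, so these differences are a description.

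The genes that work with or act on Hox genes were described by 8 lists. Together they held 154 probe sets of 123 measured genes, of which 3 were called, all higher in treated cells, namely those of Ama, tna and C15. The split was 3 higher and 2 lower with an offset of 64, and 6 higher and 4 lower without both arrays that lay apart. Of the Hox partner genes, which encode proteins that act with Hox proteins or beside them in giving segments their identity, 0 of 6 probe sets of 5 genes were called by limma, and 2 had an unadjusted p under 0.05, beside 17.2% of all probe sets. The zinc finger gene tsh, a trunk identity gene, read 67.3, 42.5 and 66.2 units untreated and 115, 77.2 and 129 units treated, a difference of 0.71 ± 0.26 (adjusted p = 0.213). Its paralogue tio read 56.9, 53.4 and 51.1 units untreated and 32.3, 29.9 and 41.5 units treated, a difference of −0.47 ± 0.19 (adjusted p = 0.263). The groups of both did not overlap, in opposite directions (beside 10.4% of probe sets with the treated group above and 12.4% with it below), and neither passed the test.

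The zinc finger gene disco, which acts with Hox genes of the head, read 54.2, 431 and 188 units untreated and 96.7, 57.3 and 33.6 units treated. Its untreated values spread widely and overlapped the treated ones, and the difference was −1.32 ± 0.67 (adjusted p = 0.390). The 2 probe sets of its relative disco-r differed by −0.18 and 0.22, and lin, which acts with Abd-B in the posterior spiracles, by −0.11 ± 0.50 (adjusted p = 0.948). The principal Hox cofactor genes exd and hth were not analysed here.

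Among the chromatin regulators, 0 of 16 probe sets of 15 Polycomb group genes were called by limma, 2 had an unadjusted p under 0.05, and the median difference of the 16 was −0.07. That of esc was at −0.89 (adjusted p = 0.0591), and it was called lower with an offset of 64 and under a filter on mean intensity. Of 24 probe sets of 20 trithorax group genes, 1 was higher and 23 did not pass, with 5 at an unadjusted p under 0.05 (17.2% of all probe sets) and a median of 0.11. The one that rose was tna (tonalli), which encodes a SUMO ligase-like protein that interacts genetically with the Brahma chromatin remodelling complex. It went from 189 ± 43.3 to 786 ± 127 units (SD, n = 3 per group), and the difference of 1.98 ± 0.24 (SE, limma, adjusted p = 0.00620) kept its call under every alternative tried, at 1.75 to 2.13. Its probe set also carries the suffix _s_at.

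Of 30 probe sets of 25 other homeobox genes of the Antp class, the class to which btn and the Hox genes belong, 1 was higher and 29 did not pass, with 3 at an unadjusted p under 0.05 and a median difference of 0.01. That one was C15, a relative of vertebrate Tlx genes needed in the amnioserosa and at the leg tip, which read 55.8, 58.9 and 41.2 units untreated and 258, 469 and 192 units treated. It rose by 2.16 ± 0.34 (SE, limma, adjusted p = 0.0151). The second probe set of C15 differed by −0.47 (adjusted p = 0.314). The call was lost without any 1 untreated array or without 20E replicate 1, with an adjusted p of up to 0.0916. Of 57 probe sets of 42 homeobox genes of other classes, 0 were called by limma, 4 had an unadjusted p under 0.05, and the median was −0.02.

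Known targets of Hox proteins in the fly, such as the salivary gland gene fkh, the limb gene Dll and the growth factor gene dpp, gave 0 calls by limma among 17 probe sets of 11 genes, 2 with an unadjusted p under 0.05 and a median of 0.12. Regulators of the mesoderm, the layer in which btn acts in the embryo, gave 0 calls among 11 probe sets of 10 genes, 1 with an unadjusted p under 0.05 and a median of −0.15. These medians stand beside −0.02 over all probe sets, the called shares beside 5.10%, and the unadjusted counts beside 17.2%. Without both arrays that lay apart, 10 of the 154 listed probe sets were called in place of 3, and 2187 of all probe sets in place of 957. That setting had 2 arrays per group and was chosen after the data were seen, so these calls are a description. Among the Hox targets, a probe set of kn was then at −2.85 (adjusted p = 0.0184) in place of −1.51, and one of Con at −2.36 (0.0238) in place of −0.97. The homeobox gene ind was at −1.87 (0.0183) in place of −0.72, and cad at 1.00 (0.0370) in place of 0.78. The trithorax group gene psq was at 1.73 (0.0334) in place of 0.44, and a probe set of skd at 1.44 (0.0226) in place of 1.00. With all arrays, the other probe sets of kn and skd differed by 0.30 ± 0.35 and 0.39 ± 0.41. Of the untreated values of cad, 2 of 3 were below 0.

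**Figure D5:**
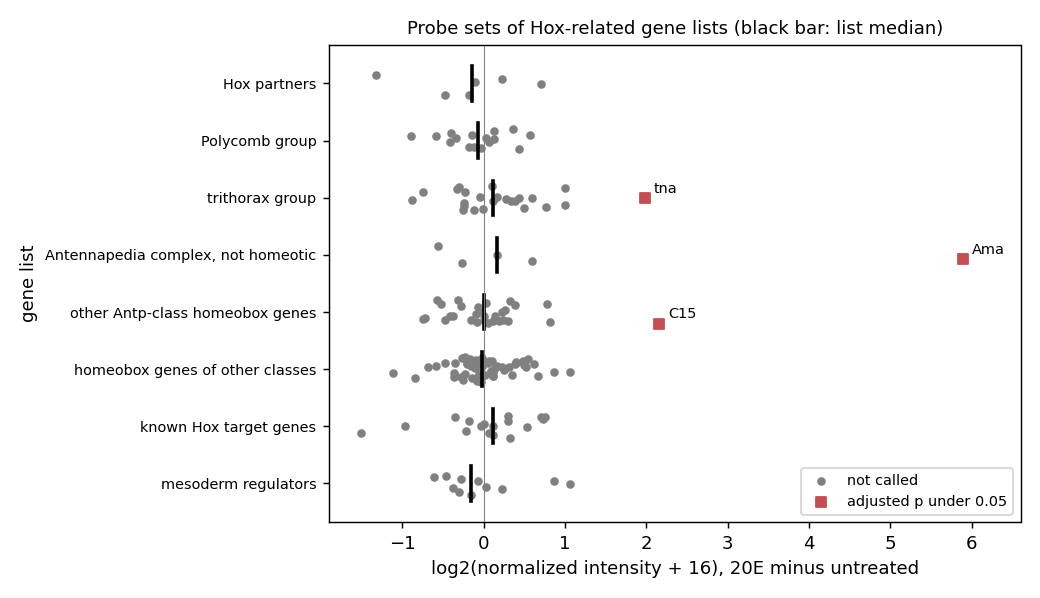
Log2 difference between treated and untreated cells (horizontal axis, n = 3 per group) for each probe set of 8 gene lists around the Hox genes (vertical axis). Grey points did not pass the test, red squares had an adjusted p under 0.05, and black bars are list medians. Ama at 5.89, C15 at 2.16 and tna at 1.98 are the probe sets that passed.

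The cells were checked against marker lists of haemocytes and other cell types. Of 10 probe sets of 9 haemocyte markers, 2 rose, those of srp and crq, beside 3.02% of all probe sets. By limma, 4 of the 10 had an unadjusted p under 0.05, beside 17.2% of all probe sets. The others of these 4 were ush at 1.41 (adjusted p = 0.103) and Sr-CI at 1.08 (adjusted p = 0.0596), which were not called. The summed intensity of the list was 523 to 894 units untreated and 1654 to 4168 units treated, while 5 of the 10 probe sets had differences below 0 and the median difference was 0.06. Within that sum, srp went from a mean of 308 to 1576 units and crq from 160 to 1157 units. The means of the haemocyte markers Hml, He, NimC1, Pxn and eater lay inside the range of the receptor probe sets in both groups. Of 4 fat body markers 1 was higher, Fbp2, with a summed intensity of 173 to 203 units untreated and 594 to 941 units treated. Fbp2 itself went from a mean of 27.7 to 561 units, while Fbp1 differed by −0.81 (adjusted p = 0.135) and Lsp2 by 0.17 (adjusted p = 0.793). Of 2 glial markers 1 was higher, moody (sum 11.8 to 52.7 and 79.1 to 184 units), while the defining glial gene repo was below 0 on average in both groups. No neuron, muscle, midgut or salivary gland marker was called, but not all of them were dim. The muscle marker Mlc2 had means of 4303 ± 2117 units untreated and 2662 ± 840 units treated (SD, n = 3 per group). The salivary gland marker Sgs4 had means of 405 and 386 units. The part of these markers in the differences of btn and Ama was not tested.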

How the data were processed

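The values deposited by the authors are linear intensities, 1 for each probe set on each array. How they corrected background, summarised probes and scaled arrays is not given in the sources used here. Deposited values run below 0, and array medians differed by up to 0.384 on the log2 scale. Intensities were therefore quantile normalized, set to at least 0, and taken as log2(intensity + 16). A change of most transcripts one way would be removed by this, and differences of dim probe sets are made smaller by the offset. Groups came from the sample titles. Treated and untreated arrays were compared with limma 3.58.1 in R 4.3.3 (lmFit, eBayes, two-sided, 3 arrays per group) over all probe sets, with no filter on low values and Benjamini-Hochberg adjustment over all of them. The procedure was also run on simulated data with independent noise and with changes only in brighter probe sets. That run does not cover arrays that lie apart or changes in dim probe sets. Empty cells were left out of a probe set's fit, 2 probe sets could not be fitted, and no value of a member was empty.

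Gene names came from the platform annotation, updated by gene number through the RefSeq gene table of Release 6 plus ISO1 MT. This gave 13647 probe sets with 1 gene symbol, 402 with several and 4720 unnamed here. No coordinates are printed, since no build is named for the array annotation.

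The members and lists were chosen with earlier results of these data known, so the p-values of listed genes are a description. All members and Hox partners are named, with up to 4 called genes of each other list, the 5 genes most like btn and its 3 nearest measured genes on each side. Genes named as examples of a list or of a marker type are outside this rule. Alternatives tried were other offsets, median centring or no normalization, dropping probe sets whose mean intensity was under the 40th percentile, the replicate number as a block, eBayes with trend and robust options, and leaving out each array.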

Additional observations from a re-analysis of the deposited data

How the results depend on the processing

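The difference of btn, which this comparison chose and which is therefore a description, was −6.40 with an offset of 1 and −4.09 with an offset of 64, and −5.49 to −5.32 on leaving out each array. The count over all probe sets was 567 with an offset of 1 and 326 to 1174 on leaving out each array (435 and 410 without 20E replicates 1 and 3, 401 and 326 without untreated replicates 2 and 3), and 2187 without both untreated replicate 1 and 20E replicate 2, an alternative added after the data were seen. Without normalization the split was 723 higher to 307 lower, against 567 to 390. The count of listed probe sets was 5 with an offset of 64, where esc and Snr1 were added, and 10 without both of those arrays. Under the filter on mean intensity the count was 4, with esc added (limma, adjusted p = 0.0428). The count was 2 to 4 on leaving out each array. The cause of these changes was not tested. With the replicate block, 954 probe sets, 4 listed probe sets and 1 member probe set were called. The listed one added was a probe set of ap at 1.06 (limma, adjusted p = 0.0468, against 0.183 without the block). This gene is on the lists of mesoderm regulators and of homeobox genes of other classes. Its second probe set differed by −0.28 without the block. Deviations of same-numbered samples from their group means correlated at 0.238, 0.374 and −0.0202 for replicates 1 to 3. Correlations between samples of different numbers are not given here, so nothing about pairing is read from these values. Whether same-numbered samples shared a batch is not stated by the labels and was not tested. Under the filter, pb, Dfd, Scr and Antp fell below the minimum and gave no value. With 3 arrays per group and most Hox probe sets dim, small differences could not be measured.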
